A study of Bos taurus with 12 samples.

Results

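The cytosolic ribosomal protein genes of the bovine array were followed here through both cell layers of the ovarian follicle. Members were all probe sets whose platform symbol was RPL or RPS followed by a digit, or RPLP0, RPLP1, RPLP2 or RPSA. The S6 kinase symbols (RPS6K) and any probe set listed under several symbols were left out. This gave 98 probe sets of 69 genes among 24016 probe sets that were not array controls. They comprised 35 probe sets of 24 small-subunit genes, 52 probe sets of 39 large-subunit genes and 11 probe sets of 6 related genes, namely paralogs, a pseudogene and an associated gene (RPL26L1, RPS27L, RPL7L1, RPL3L, RPL15P and RPS19BP1). No probe set carried RPLP1, RPL6, RPS27A, RPS4X, RPL22L1, RPL39L or RPL10L as its only symbol, and these genes were not analysed here under those symbols.

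Total RNA of granulosa cells, the epithelial layer that lines the follicle, and of theca cells, the vascular steroid-producing layer around it, was read on Affymetrix arrays. Untreated ovaries came from young cycling heifers in the follicular stage, and follicles were small (up to 5 mm), medium (5 to 10 mm) or large (over 10 mm), which gave 6 groups of 2 arrays. Each array held a pool, of 20 to 40 follicles by one label and of 20 to 40 ovaries from 6 to 10 animals by the design text, so p-values measure the spread between pools and not between animals. The description label named theca for all 12 samples, whereas the titles, which were used, named granulosa for 6 of them.

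Ribosomal proteins coat the ribosomal RNAs and give the small subunit, which reads the messenger RNA, and the large subunit, which joins amino acids. Their messenger RNAs are among the most abundant in any cell and start with a terminal oligopyrimidine tract, through which the mTOR pathway sets how actively they are translated. Growing follicles multiply their granulosa cells and differentiate their theca, and both need ribosomes, while members such as RPS18, RPLP0 and RPL13A are also in common use as reference genes.

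Markers bore out the titles: of 10 granulosa markers 8 were called higher in granulosa over all sizes and 0 lower, led by the keratin KRT18 (3.77 on the log2 scale). Of 8 theca markers 6 were called lower in granulosa, led by the androgen enzyme CYP17A1 (-5.42). Both calls are limma tests at a Benjamini-Hochberg adjusted p under 0.05 on log2(signal + 16), the scale used throughout. In large follicles the summed granulosa markers overlapped between the layers, with 16415 to 26022 in granulosa and 12220 to 18406 in theca. The summed theca markers did not, with 2099 to 2504 in granulosa and 19450 to 26167 in theca. A pair of arrays stood apart. Theca small replicate 1 had a GAPDH 3' over 5' signal ratio of 8.36 against 0.984 to 1.30 elsewhere. Granulosa large replicate 1 had an actin 3' over 5' ratio of 21.0. The actin ratio was 11.2 on theca small replicate 1 and 2.39 to 7.57 on the other arrays, with 7.25 on theca small replicate 2. All arrays had been scaled to the same trimmed mean, and counts without both arrays are given where they matter.

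Most members gave very strong signals. Their mean over the 12 arrays was 10 or more on the log2 scale for 68 probe sets, over 12 for 63 and over 13 for 39. The 5 brightest were RPS18 (13.44), RPL13A (13.38), RPS15 (13.32), RPS16 (13.29) and RPS27 (13.29), all but RPL13A proteins of the small subunit. The 5 dimmest were RPL3L (5.01), a paralog of RPL3 known from muscle, both probe sets of RPS19 (4.94 and 4.28), and the further probe sets of RPS27L (4.79) and RPS12 (4.62). A probe set's signal depends on how well its probes bind, so these levels do not order the genes by expression.

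Some core ribosomal proteins were among the dim probe sets. RPS19, a small-subunit protein, was read at signals between 2.0 and 37.7 by its brighter probe set, and RPL37, a large-subunit protein, at 9.3 to 31.7. Only a signal above 22.5 as a group mean admitted a probe set to the tests, and 94 of the 98 members passed, while RPL3L and 1 further probe set each of RPS27L, RPS12 and RPS19 did not. Of the 19 genes with several probe sets, 17 had probe sets more than 3 log2 units apart in mean, so the brightest probe set of each of the 69 genes and the 29 further ones are kept apart in what follows.

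On every array the members together took a large part of all signal. Their share of the summed signal was 9.98% and 11.6% on the small granulosa arrays, 8.83% and 8.66% on the medium ones and 12.4% and 9.86% on the large ones. In theca it was 15.2% and 13.7% in small, 10.7% and 11.1% in medium and 10.9% and 11.3% in large follicles. Both small theca arrays lay above all others and both medium granulosa arrays below all others. In these bulk pools, fewer cells of a type and less RNA per cell cannot be told apart.

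**Figure D1:**
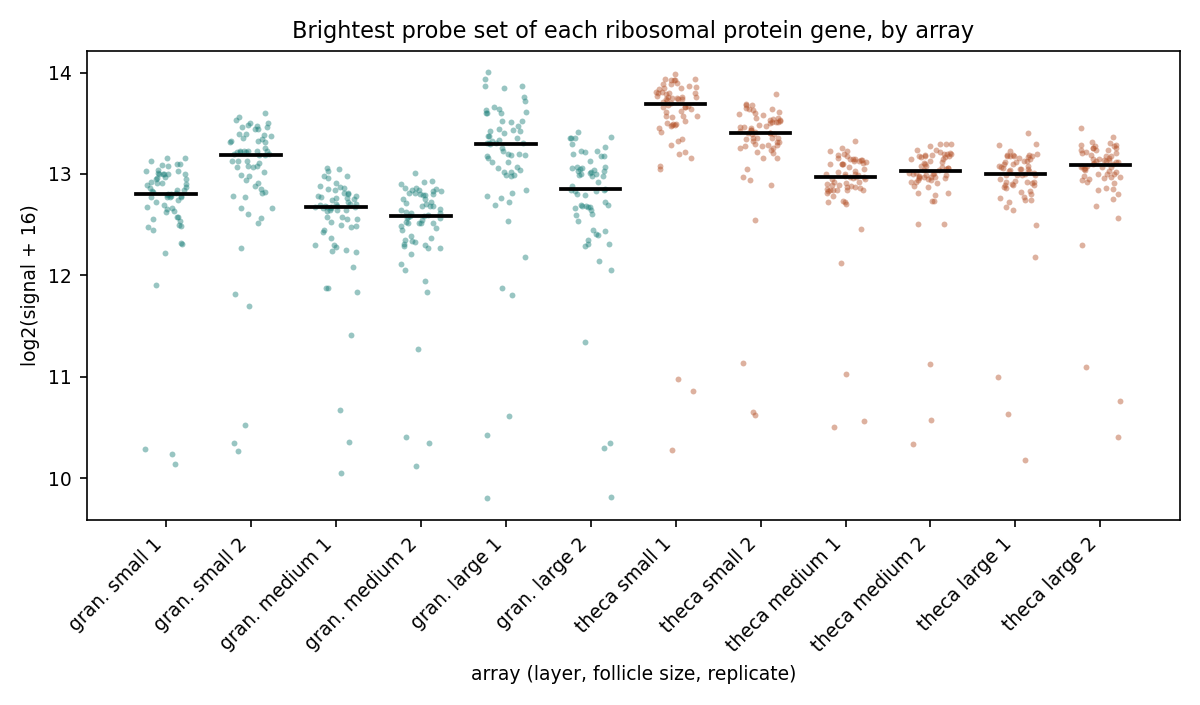
Log2(signal + 16) of the brightest probe set of 64 ribosomal protein genes (those with a mean of 10 or more) on each of the 12 arrays, in the order of layer, size and replicate; points are probe sets and black lines their medians. The medians run from 12.58 on granulosa medium replicate 2 to 13.69 on theca small replicate 1, and the 4 arrays of medium and large theca lie close together, between 12.97 and 13.09.

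Replicates moved as a block in some groups. The median gap between replicates over the 98 probe sets, taken without sign, was only 0.08 in medium theca and 0.10 in large theca, against 0.26 in both groups over all tested probe sets. In small granulosa replicate 2 was the higher for 76 of 98 members, and in large granulosa and in small theca replicate 1 was the higher for 81 each. Theca small replicate 1, the array with the high GAPDH ratio, was the highest of all 12 arrays for 66 members and theca small replicate 2 for 11. The lowest array was granulosa medium replicate 1 for 32 members and granulosa medium replicate 2 for 37.

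Granulosa was first set against theca over all sizes. None of the 94 tested members was called higher in granulosa, against 13.2% of all tested probe sets, and 24 (25.5%) were called lower, against 11.0% of all. The 24 belonged to 18 genes, and 15 were large-subunit, 5 small-subunit and 4 other probe sets. Counted with no test, 89 of 98 members had a negative difference, with a median difference of -0.31 where the median of all tested probe sets was 0.10. At an unadjusted p under 0.05, limma gave 2 members higher and 33 lower. The share of all tested probe sets at this unadjusted limit is not given, here or below, nor is the share called under each alternative setting. Those counts are therefore not read as particular to the members. Without both arrays that stood apart, 25 were lower and 2 higher, the latter being dim probe sets of RPL26 (0.72) and RPS19 (0.67).

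**Figure D2:**
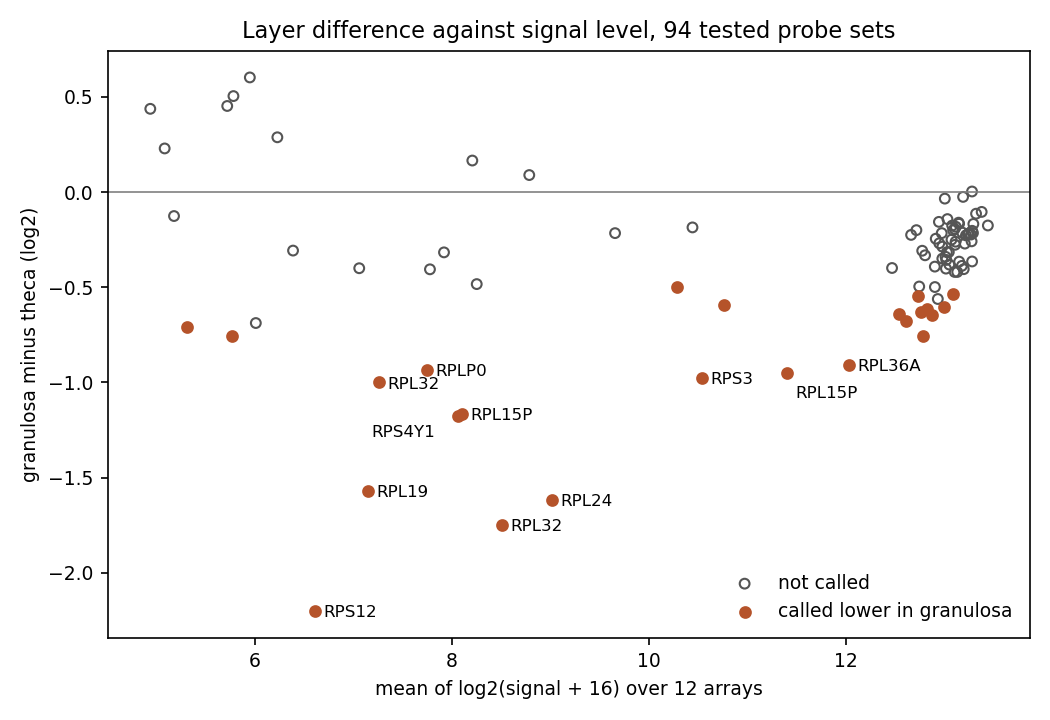
Granulosa minus theca over all sizes (log2) against the mean of log2(signal + 16) over the 12 arrays, for the 94 tested probe sets; filled points are the 24 called lower in granulosa. Most bright probe sets lie near or below 0, and some reach further down, such as RPL36A at -0.91 and a further RPS3 probe set at -0.98. The differences beyond -1 all belong to probe sets with a mean under 10.

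The larger differences lay in further, dimmer probe sets. Of the 29 further probe sets 26 were tested and 12 called lower (46.2% of those tested), with a median of -0.41. Of the 69 brightest probe sets 68 were tested and 12 called lower (17.6%), with a median of -0.27 and no difference beyond -0.91. Split by level instead, 14 of 68 members with a mean of 10 or more were called and 10 of the 26 tested ones under 10.

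RPS12, a small-subunit protein, had the largest difference. The further probe set that leads the plot of called probe sets gave signals of 23.4 and 26.4 in small, 40.0 and 6.3 in medium and 71.7 and 33.5 in large granulosa. In theca the same probe set gave 216.7 and 170.5 in small, 201.4 and 227.4 in medium and 226.7 and 137.6 in large follicles. All 6 granulosa arrays lay below all 6 theca arrays, by a difference of -2.20 ± 0.25 (standard error, 6 arrays a layer), 4.60-fold on the log2(signal + 16) scale, which understates folds of dim probe sets, with a limma Benjamini-Hochberg adjusted p of 3.2e-05. The brightest RPS12 probe set ran from 5841 to 10121 in granulosa, with a median of 7045, and from 7945 to 13337 in theca, with a median of 8329. The layers overlapped on the brightest one, and its difference of -0.31 was not called (limma adjusted p = 0.23), while another RPS12 probe set differed by 0.17.

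RPL32, a large-subunit protein, was called on all of its 3 probe sets. The further one with the larger difference ran from 86.0 to 304.6 in granulosa, with a median of 194, and from 563 to 884 in theca, with a median of 612. The layers did not overlap, and the difference was -1.75 ± 0.20, 3.36-fold (limma adjusted p = 2.88e-05). The brightest gave 5092 and 7241, 3739 and 3652, and 6630 and 4225 in small, medium and large granulosa, and 10223 and 10253, 7034 and 7479, and 6526 and 6556 in theca. Here the layers overlapped at the edge, with a difference of -0.68 ± 0.19 (limma adjusted p = 0.0182), and the remaining RPL32 probe set was called as well.

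RPL24 and RPL19, also of the large subunit, were called on both of their probe sets. The further RPL24 probe set ran from 99.5 to 607 in granulosa, with a median of 327, and from 662 to 1248 in theca, with a median of 906. The further RPL19 probe set ran from 14.9 to 142.9 in granulosa, with a median of 82.2, and from 157.5 to 384.5 in theca. Neither overlapped between layers, and the differences were -1.62 ± 0.22 for RPL24 and -1.57 ± 0.30 for RPL19, with limma adjusted p-values of 0.000174 and 0.00184. Their brightest probe sets differed by -0.53 ± 0.17 and -0.64 ± 0.19, in the same direction but by less.

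**Figure D3:**
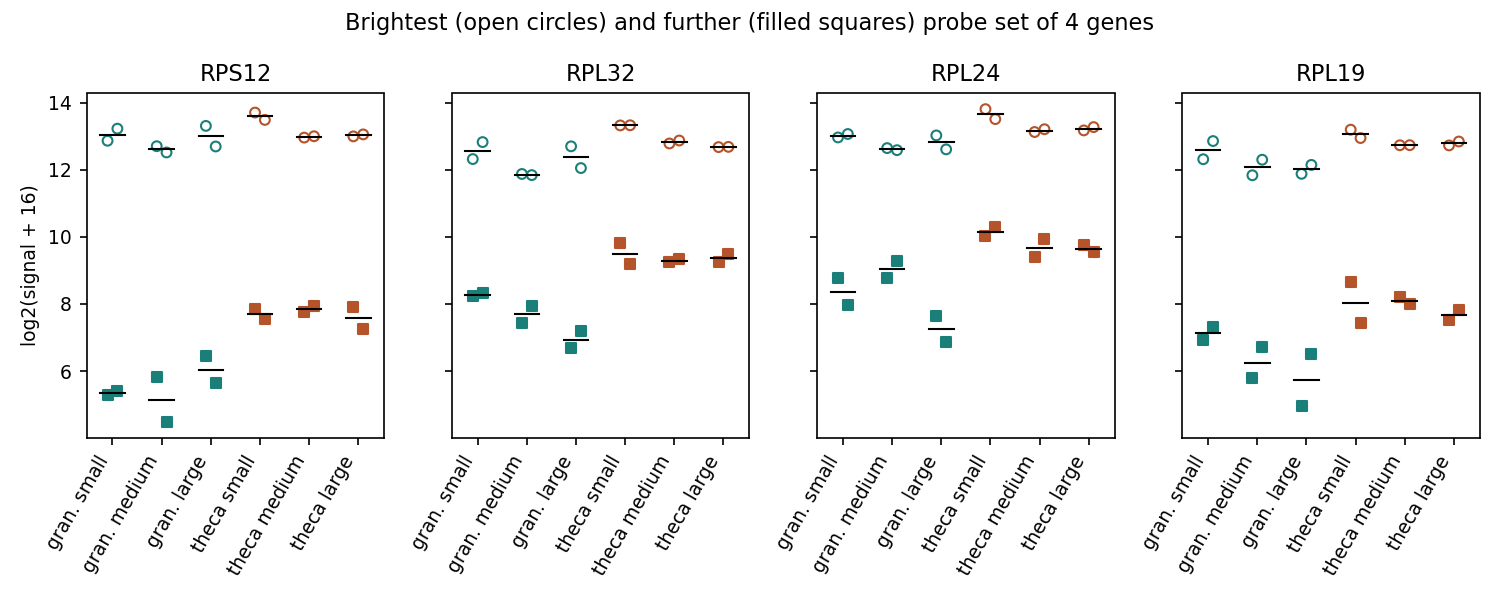
Log2(signal + 16) of the brightest probe set (open circles) and one further probe set (filled squares) of RPS12, RPL32, RPL24 and RPL19 in the 6 groups; each point is an array and each line a group mean. The filled squares of granulosa all lie below those of theca, whereas the open circles of the layers lie close together, and overlap for RPS12, RPL32 and RPL19.

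Among single bright probe sets RPL36A stood out. It gave 3825 and 3318 in small, 2708 and 2460 in medium and 3564 and 2580 in large granulosa, and 9503 and 5982, 4431 and 5808, and 4624 and 5039 in theca. All granulosa arrays lay below all theca arrays, and the difference of this large-subunit protein was -0.91 ± 0.19, 1.87-fold (limma adjusted p = 0.00424). RPL7 ran from 3585 to 8264 in granulosa and from 7410 to 13643 in theca, overlapping, with a difference of -0.76 ± 0.22 (limma adjusted p = 0.0228). RPL5, which carries the small 5S ribosomal RNA into the subunit, differed by -0.65 ± 0.21 (limma adjusted p = 0.0415), its arrays overlapping too.

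The other called brightest probe sets of the large subunit were RPL17 (-0.63), RPL14 (-0.61), RPL29 (-0.61) and RPL10A (-0.54). RPL17 ran from 4734 to 7047 in granulosa and from 7132 to 12942 in theca, and RPL14 from 4955 to 7185 and from 7636 to 13029. The layers did not overlap on these, with limma adjusted p-values of 0.0211 and 0.0217, but did on RPL29 and RPL10A. No brightest probe set of a small-subunit gene was called, but 5 were under a limma trend in the spread (RPS21, RPS9, RPS4Y1, RPS6 and RPS24, all lower) and these with RPS20 on log2(signal + 64). RPS24 was also called after centring on array medians, without granulosa large replicate 1, without theca small replicate 2 and without both theca small replicate 1 and granulosa large replicate 1. RPS19 was called higher in granulosa without theca small replicate 1 (0.67) and without both of those arrays (0.67).

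The stalk and the small-subunit members with roles of their own mostly gave layer differences that were not called. RPLP0, the base of the stalk that recruits elongation factors, ran from 6284 to 11057 in granulosa and from 7461 to 12193 in theca on its brightest probe set, with a difference of -0.14 (95% interval -0.52 to 0.24). Its second bright probe set differed by -0.22, and only the dim remaining one, at 83.2 to 186.1 against 198.9 to 510.5, was called, with -0.93 ± 0.23 (limma adjusted p = 0.00963). RPLP2, the stalk protein that binds to RPLP0, differed by -0.17 (limma adjusted p = 0.52). RPSA, a small-subunit protein also known as a laminin receptor, differed by -0.23 (95% interval -0.62 to 0.16).

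RPS6, the small-subunit protein that the S6 kinases phosphorylate, ran from 6575 to 9279 in granulosa and from 8725 to 14766 in theca. The layers overlapped and the difference of -0.42 was not called (limma adjusted p = 0.0943, or 0.0193 under the trend). RPS18 differed by -0.18, RPL13A by -0.10, RPS2 by -0.02 and RPS29 by 0.00, all within the spread between arrays. RPL11, which together with RPL5 binds the p53 regulator MDM2, differed by -0.26 (limma adjusted p = 0.314), and RPS14 and RPL10 by -0.19 and -0.22.

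The further probe sets of other small-subunit genes added 4 calls. RPS3, a protein of the messenger RNA entry site, was called on a further probe set that ran from 802 to 1394 in granulosa and from 1657 to 4052 in theca without overlap (-0.98 ± 0.23), while its brightest probe set differed by -0.26. Of the probe sets with the platform symbol RPS4Y1, a form of the small-subunit protein RPS4, both further ones were called (-1.17 and -0.71). The brightest was not (-0.39, limma adjusted p = 0.115). The animals were heifers, and which form of RPS4 these probe sets read was not checked. The probe set at -0.71 was dim, and its difference ran from -1.35 to -0.30 over the alternative settings. RPS7 held further probe sets with opposite signs: one was called at -0.76, while another differed by 0.60 without a call (limma adjusted p = 0.201). Both RPS7 probe sets were dim, and the brightest differed by -0.31.

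Paralogs and the pseudogene gave 4 of the calls. RPS27L, a paralog of RPS27 that p53 induces, ran from 1240 to 1620 in granulosa and from 2002 to 2232 in theca. The layers did not overlap (-0.59 ± 0.17, limma adjusted p = 0.0242), whereas RPS27 itself differed by -0.21 (limma adjusted p = 0.421). RPL26L1, a paralog of RPL26, was called at -0.50 ± 0.17, close to the -0.50 of the uncalled RPL26 (limma adjusted p = 0.06). RPL15P, which the gene table lists as a pseudogene, was called on both further probe sets (-1.16 and -0.95), and its brightest differed by -0.03. RPL22 (-0.50), RPL39 (-0.20), the 3 probe sets of RPL7L1 and RPS19BP1 (0.09) were not called.

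**Figure D4:**
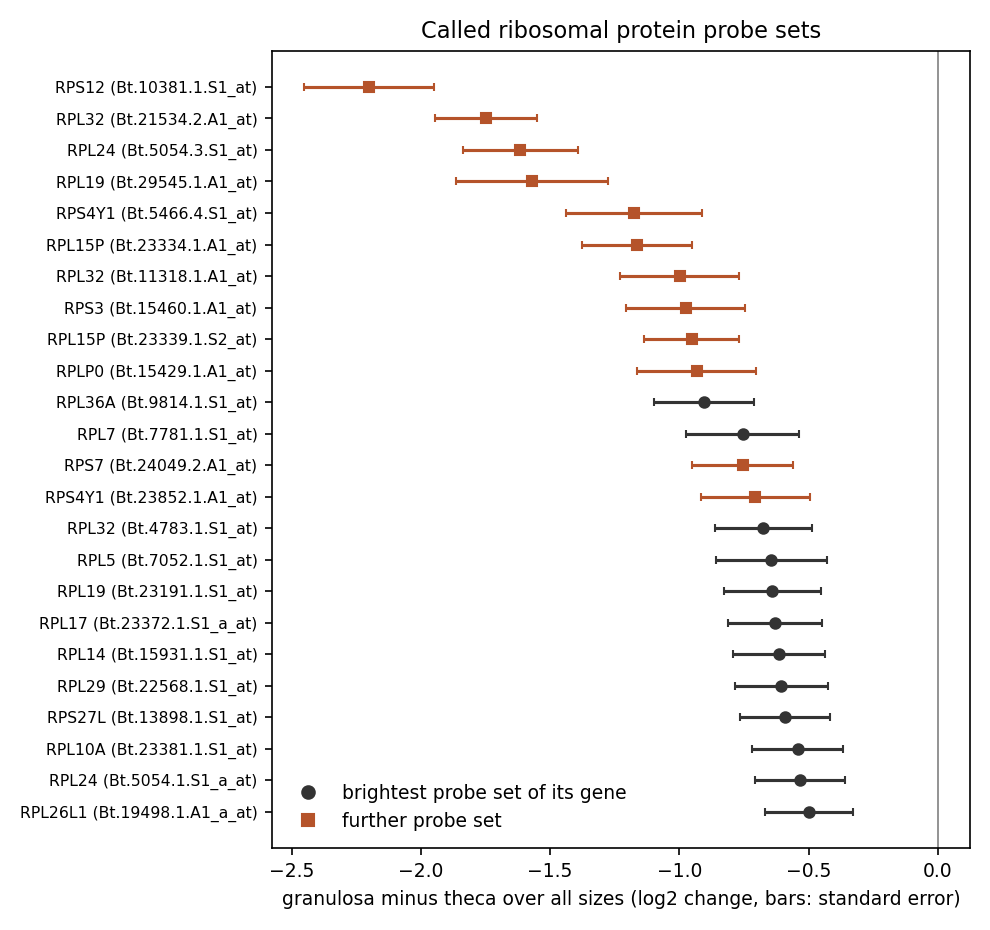
Granulosa minus theca over all sizes (log2 change, bars are the standard error of the limma model) for the 24 called ribosomal protein probe sets; circles are the brightest probe set of a gene and squares further ones. All 24 lie below 0, from -2.20 for RPS12 to -0.50 for RPL26L1, and the 10 largest differences are further probe sets.

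Arrays were also compared without the model. On 15 of the 98 members (15.3%, against 3.82% of the 24016 probe sets that were not controls) every granulosa array lay below every theca array, and on 0 every one lay above. The share of all probe sets with every granulosa array above is not given, so this 0 has no background. Apart from the probe sets named above, RPL22 was among the 15 with 5163 to 6933 in granulosa and 6948 to 11174 in theca, a gap narrower than the replicate spread.

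The choice of alternative settings bore on single calls. Of the 24 calls 12 held under all 21 alternatives, namely 11 of the further probe sets and RPL36A, and none changed sign. After quantile normalization, which gives all arrays 1 distribution, 15 were called and the member median was -0.13. The count was 35 both under a limma trend in the spread and on log2(signal + 64), all lower, and 18 on log2(signal + 1). It was 14 without theca large replicate 1, 15 without granulosa small replicate 1, and 12 each without theca large replicate 2 and without theca medium replicate 2.

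Marker lists of other cell types also differed between the layers. All 6 fibroblast and stroma markers, all 4 smooth muscle markers and 4 of 6 endothelial markers were called lower in granulosa, and the fibroblast list summed to signals of 1720 to 8252 on the granulosa and 21753 to 29440 on the theca arrays. Under the tested signal of 22.5 lay the endothelial marker KDR in all 6 groups and VWF in all but medium theca. The part of cell mixture in the ribosomal protein differences was not tested.

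Within small follicles, 6 members were called lower in granulosa (6.38% of those tested, against 4.98% of all) and 0 higher, with 1 higher and 26 lower at an unadjusted p under 0.05 in limma. The share of all tested probe sets called higher is not given for small, medium or large follicles, so the 0 higher in each has no background. The member median was -0.52, where all tested probe sets gave 0.03 and quantile normalization left -0.08. The calls were RPS12 (-2.35), RPL24 (-1.79), RPL15P (-1.41), RPL7 (-1.32), RPS4Y1 (-1.30) and RPL32 (-1.21). RPL7 was the brightest probe set among them, with 6080 and 3585 in granulosa against 13643 and 9997 in theca. The RPS4Y1 probe set was a dim one, and its difference ran from -2.68 to -0.53 over the alternative settings. Without theca small replicate 1, the array with the high GAPDH ratio, 2 were called and the median was -0.40. Without granulosa small replicate 2 there was 1, without granulosa small replicate 1 there were 3, and without theca small replicate 2 there were 10. Leaving out either array of medium or of large theca, which this comparison uses only for its estimate of spread, gave 3 as well.

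Within medium follicles, 3 members were called lower (3.19%, against 4.09% of all) and 0 higher, with 0 higher and 13 lower at an unadjusted p under 0.05 in limma. They were the further probe sets of RPS12 (-2.70), RPL19 (-1.84) and RPL32 (-1.60), and the member median was -0.37 against 0.08. Without granulosa medium replicate 1, theca medium replicate 1 or theca medium replicate 2 there was 1, without either small theca array 5, and without both arrays that stood apart 6.

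Within large follicles, 4 members were called lower (4.26%, against 2.34% of all) and 0 higher, with 1 higher and 7 lower at an unadjusted p under 0.05 in limma. They were further probe sets of RPL32 (-2.43), RPL24 (-2.41), RPL19 (-1.94) and RPL15P (-1.42). The median over the members was -0.03, with 54 below and 44 above 0, and RPS18 gave 14880 and 10900 in granulosa against 10805 and 11233 in theca. Without granulosa large replicate 1, theca large replicate 1 or theca large replicate 2 there were 2 calls, and the medians were -0.15, -0.07 and 0.0025. The median was 0.09 without granulosa large replicate 2. Summed granulosa markers overlapped between the layers in large follicles, and their part in these values was not tested. Quantile normalization and centring on array medians gave member medians of -0.19 and -0.25, and centring shifted the median of all tested probe sets from 0.13 to -0.09.

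Among the sizes within granulosa, limma called 0 members. Medium granulosa gave the lowest values: on 51 of 98 members (52%, against 6.05% of the 24016 probe sets) both medium arrays lay below all small and large ones. RPS6 gave 7674 and 8915 in small, 6986 and 6575 in medium and 9279 and 7271 in large granulosa, and RPLP0 7106 and 9404, 6503 and 6284, and 11057 and 8269. On both, the medium arrays were the lowest, but the replicates of small and large follicles were wide apart.

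For medium minus small granulosa the member median was -0.33 (84 of 98 below 0; all tested probe sets 0.00, quantile normalization -0.08). It was -0.51 without granulosa small replicate 1 and -0.18 without granulosa small replicate 2, and 0 members were called, against 0.00572% of all. At an unadjusted p under 0.05 limma gave 1 higher (RPS4Y1, a dim probe set, 0.92) and 1 lower (RPL32, -0.71). For large minus medium it was 0.39, with 77 of 98 above 0, but -0.02 after quantile normalization, 0.22 without granulosa large replicate 1 and 0.54 without granulosa large replicate 2. None was called (0.664% of all), and limma gave 4 higher and 2 lower at an unadjusted p under 0.05, among them RPL39 (0.81), RPS29 (0.75) and RPL24 (-1.79, adjusted p = 0.0527).

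For large minus small granulosa the member median was 0.06, and turned to -0.11 after quantile normalization and to -0.12 after centring on array medians. It also turned without granulosa large replicate 1 (-0.10) and without granulosa small replicate 1 (-0.07), and was 0.22 without granulosa large replicate 2 and 0.18 without granulosa small replicate 2. None was called (2.16% of all), with 1 higher and 4 lower at an unadjusted p under 0.05 in limma. The dim RPL32 probe set named above differed most by that test, from 285.6 and 304.6 in small to 86.0 and 130.4 in large granulosa (-1.35 ± 0.34, limma adjusted p = 0.0595). It passed in 4 alternatives, without granulosa large replicate 2 (with RPL19), without either small theca array, and after centring. Immune markers moved with this comparison: all 9 with a probe set were called higher in large granulosa, and their summed signal was 339 to 387 in small and 2925 to 10940 in large granulosa. Their part in these values was not tested.

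Among the sizes within theca limma called 0 members too, although small theca gave the highest values. On 68 of 98 members (69.4%, against 13.5% of the 24016 probe sets) both small arrays lay above all medium and large ones. RPS6 gave 14766 and 11798 in small, 8725 and 9274 in medium and 9338 and 9243 in large theca, and RPSA 14936 and 10787, 9248 and 9375, and 8848 and 9532. The small arrays were high and apart from each other, and the other 4 lay close together.

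For large minus small theca the member median was -0.46, with 93 of 98 below 0, against -0.04 for all tested probe sets, and for medium minus small it was -0.49, with 87 below 0, against -0.03. None was called in either, against 0.0343% and 0.0114% of all, with 0 higher and 3 lower, and 0 higher and 1 lower (RPS26, -0.75), at an unadjusted p under 0.05 in limma. After quantile normalization the medians were -0.06 and -0.04. The largest large minus small difference at that unadjusted limit was RPL7L1 (-0.96), a dim probe set with 183.7 and 58.1 in small and 34.9 and 60.7 in large theca. It was called without theca small replicate 2, which left the array with the high GAPDH ratio alone in its group.

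For large minus medium theca the member median was 0.01, or -0.03 after quantile normalization, and leaving out 1 array put it between -0.0047 and 0.05. None was called here or in the whole table (0% of all), and 0 members had an unadjusted limma p under 0.05. Granulosa markers moved with size in theca: their summed signal was 4123 to 4824 in small, 5756 to 11240 in medium and 12220 to 18406 in large theca, with KRT8 under a signal of 22.5 in all of them. Their part was not tested.

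The difference between the layers in the large minus small step was tested as an interaction. The member median was 0.47, with 83 of 98 above 0, but -0.04 after quantile normalization. None was called, against 0.0114% of all, and limma gave 0 higher and 1 lower at an unadjusted p under 0.05, the dim RPL32 probe set (-1.22). RPL13A (0.94), RPS27 (0.92), RPL39 (0.89) and RPS29 (0.89) had the next smallest p-values, with a limma adjusted p of 0.499 for RPL13A.

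**Figure D5:**
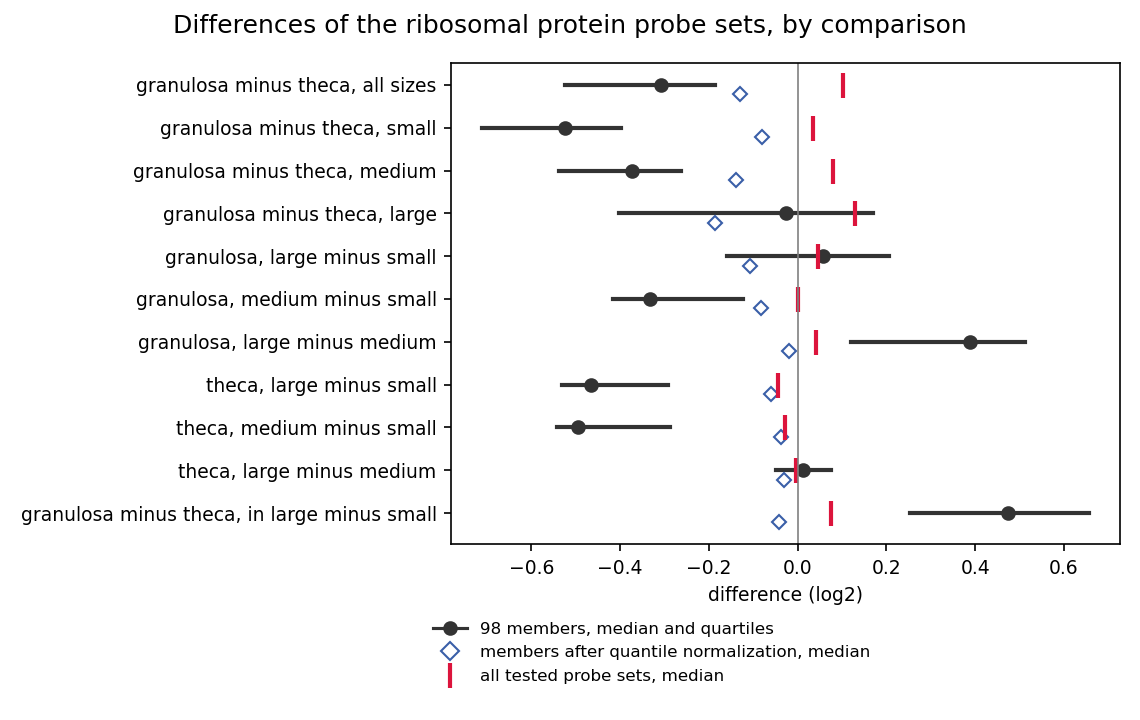
Median (points) and quartiles (bars) of the log2 differences of the 98 ribosomal protein probe sets in the 11 comparisons, with the member median after quantile normalization (diamonds) and the median of all tested probe sets (red marks). Member medians lie between -0.52 and 0.47 on the deposited scale, and between -0.19 and -0.02 after quantile normalization, which turns granulosa large minus small, granulosa large minus medium, theca large minus medium and the interaction below 0.

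Quantile normalization, which uses ranks within each array, also gave the member level per array. It was 12.88 and 12.82 in small, 12.75 and 12.74 in medium and 12.81 and 12.69 in large granulosa. In theca it was 12.96 and 12.98, 12.91 and 12.97, and 12.95 and 12.97. The layers did not overlap, and within theca the sizes no longer separated.

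The wider translation machinery was read from fixed lists, 1 probe set a gene, for granulosa minus theca over all sizes. The shares called over all tested probe sets, 13.2% higher and 11.0% lower, are the background for each count, and no list was tested as a whole. Of 6 elongation factors 0 were called higher and 2 lower (limma), the exchange factor subunits EEF1B2 (-0.67) and EEF1D (-0.66), and EEF1A1, which carries the transfer RNAs, differed by -0.01. Of 14 other genes with terminal oligopyrimidine messenger RNAs 0 were called higher and 5 lower, the chaperones NAP1L1 (-1.41) and NACA (-1.12), the initiation factor subunits EIF3E (-1.22) and EIF3H (-0.77), and NOP53 (-0.74). The list medians were -0.38 and -0.49.

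Of 15 initiation factors 2 were called lower, EIF2S3 (-1.77), which brings the initiator transfer RNA, and EIF3A (-0.62), and 0 higher. Of 11 mTOR and S6 kinase genes 3 were called higher and 0 lower, with a median of 0.48 where all tested probe sets gave 0.10. The 3 were the mTOR partner RPTOR (0.76) and the mTOR inhibitors TSC1 (1.16) and DDIT4 (1.25), while the S6 kinase RPS6KB1 differed by 0.63 without a call (limma adjusted p = 0.0868). Of 19 ribosome biogenesis genes 2 were called lower, the nucleolar NCL (-0.80) and GNL3 (-1.18), and 0 higher, with a median of 0.14.

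Mitochondrial ribosomal proteins build the separate ribosome of that organelle. Of their 67 genes 3 were called higher (MRPL14 at 0.97, MRPS6 at 0.83 and MRPL38 at 0.72) and 1 lower (MRPL51 at -0.55), both shares under the background, with a median of 0.05. The brightest probe sets of the 69 cytosolic genes gave 0 higher and 12 lower, with a median of -0.27. The difference between the families was not tested.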

How the data were processed

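The deposited table held linear intensities, which the authors had scaled to a common trimmed mean. The processing software is not given in the sources used here. All 12 columns matched a sample, and 0 stayed unmapped. The 112 control probe sets were left out. Signals were turned into log2(signal + 16), which understates the fold of dim probe sets, and a probe set was tested where a group mean passed 22.5, the 40th percentile of the whole table. That left 17478 probe sets.

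A limma model (3.58.1, R 4.3.3) with a mean per group over all 12 arrays (6 residual and 7.98 prior degrees of freedom) gave 11 contrasts, adjusted by Benjamini-Hochberg over all tested probe sets and called under 0.05. The precision is limited by 2 arrays a group, for which an exact permutation p (two-sided) is at least 0.333. The script was tested on simulated data. For granulosa minus theca over all sizes it recovered 0% of log2 changes of 0.5, 52% of 1 and 96% of 2. Only 50 probe sets of each size of change were altered among 17478, whereas in the data 13.2% were called higher and 11.0% lower. The adjusted limit therefore differed, and these rates do not carry over to the data, where RPL26L1 was called at -0.50. A missing call still does not show equal levels. Alternatives were the pseudocount, the filter, the normalization, a trend in the spread, a replicate block, the arrays of 1 layer alone, and leaving out arrays.

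Named were the stalk proteins and RPSA, up to 5 called members each way per contrast, the 5 brightest and 5 dimmest, the paralogs with their partners, genes whose probe sets lay over 3 log2 units apart, and RPS19, RPL5, RPL11, RPS6, RPL10, RPS14, RPL13A, RPL32 and RPS18. Further members were named after their values were seen. Members and lists were chosen with earlier results of these data known. Gene types came from RefSeq's list of genes for ARS-UCD2.0. A planned search of promoters for motifs was not analysed here. Figures were drawn with matplotlib 3.10.9 (Python 3.11.15).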

Additional observations from a re-analysis of the deposited data

Results flagged for a closer look

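On 5 of the 98 probe sets both arrays of granulosa moved one way between sizes and both arrays of theca the opposite way. From medium to large follicles RPL10A differed by 0.26 in granulosa and by -0.11 in theca, the brightest probe set of RPL32 by 0.52 and -0.15, RPL8 by 0.44 and -0.13, and RPS13 by 0.40 and -0.0527. From small to medium follicles the further probe set of RPL24 differed by 0.66 in granulosa and by -0.48 in theca. The difference between the layers in these steps was not tested. The share of all probe sets with such opposite moves is not given, so the 5 cannot be read as particular to the members.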

How the results depend on the processing

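With 2 pools a group, calls moved with single arrays. Over all sizes the 24 calls ran from 12 to 27 when 1 array was left out, with 15 after quantile normalization, 18 on log2(signal + 1), and 35 under a limma trend and on log2(signal + 64). In small follicles the 6 ran from 1 to 10, with 12 under a limma trend, 3 with log2(signal + 1), 11 with log2(signal + 64), and 2 without both arrays that stood apart. In medium follicles the 3 ran from 1 to 5, with 5 under the trend and 6 without both arrays. In large follicles the 4 ran from 2 to 5, with 2 for log2(signal + 1). The 0 calls became 1 after centring on array medians in granulosa large minus small (RPL32) and large minus medium (RPL24), and 1 under the trend in large minus medium (RPL24). Leaving out 1 array gave 0 to 2 calls in granulosa large minus small and 0 to 1 in theca large minus small, and 0 in the other size contrasts and the interaction. The causes were not tested, and the share of all tested probe sets called in each setting is not given beside these counts. Quantile normalization turned the uncalled differences over all sizes of RPL13A (0.0071), RPLP0 (0.0913), RPLP2 (0.0641) and RPS14 (0.0114) above 0, and leaving out 1 array put RPL13A between -0.21 and 0.0045.

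The replicate numbers were not treated as a pairing: replicate differences correlated between groups at -0.33 to 0.40. With the replicate number as a block, 23, 6, 2 and 5 members were called over all sizes and in small, medium and large follicles, and 0 in every other contrast. With the theca numbers crossed, chosen after seeing the data, these were 30, 10, 4 and 5.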
